A study of Mus musculus with 29 samples.

Results

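The genes described here are those that load peptides onto MHC class I molecules: the heavy chains H2-K1 and H2-D1, their light chain B2m, the peptide transporter genes Tap1 and Tap2, the loading factor gene Tapbp, the immunoproteasome subunit genes Psmb8, Psmb9 and Psmb10, and the class I transactivator gene Nlrc5. They were chosen by name for their place in this pathway, and all 10 were found among the 55421 genes of the count table. RNA came from whole liver of mice of both sexes in 6 groups. Females were young vehicle mice (n = 5; C57BL6/N, 5 months), old vehicle mice (n = 4; C57BL/6J, 20 months) and old HDM201 mice (n = 5; C57BL/6J, 20 months). Males were young vehicle mice (n = 4; C57BL6/N, 5 months), old vehicle mice (n = 4; C57BL/6J, 24 months) and old HDM201 mice (n = 5; C57BL/6J, 24 months). HDM201, a small molecule that blocks the binding of MDM2 to p53, was given at 10 mg/kg by daily gavage for 14 days, in a methylcellulose suspension. Since every old mouse is C57BL/6J and every young mouse C57BL6/N, age and substrain cannot be told apart in any comparison of old with young. The old males were also older than the old females. Sex and this gap in age cannot be told apart wherever old males are set against old females. The labels name 1 further old vehicle male and 1 further young vehicle male, and these have FPKM values only.

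MHC class I molecules sit on nearly all nucleated cells and show peptides from the cell's own proteins to CD8 T cells. The peptides are cut by the proteasome, pumped into the endoplasmic reticulum by the TAP transporter and placed into the groove of a heavy chain held in the peptide-loading complex. Interferons raise the whole pathway at once, and under interferon the constitutive catalytic subunits of the proteasome are exchanged for those of the immunoproteasome. In liver, hepatocytes carry modest amounts of class I, while Kupffer cells, sinusoidal endothelium and infiltrating leukocytes carry more.

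Of the 10 genes, 7 lie in the mouse MHC on chromosome 17: Tapbp at chr17:33915899-33929292, H2-K1 at chr17:33996017-34000347, Psmb9 at chr17:34181987-34187764, Tap1 at chr17:34187553-34197225, Psmb8 at chr17:34197721-34201454, Tap2 at chr17:34203527-34216321 and H2-D1 at chr17:35262730-35267499 (GRCm38). B2m lies apart at chr2:122147686-122153083, as do Psmb10 at chr8:105935735-105938444 and Nlrc5 at chr8:94434356-94527272. Stretches of the RefSeq promoter windows are printed for 4 of the genes, because these start regions are known to carry the elements through which inflammatory signals act on class I genes. Positions are counted from the RefSeq start, and capitals mark matches to the motifs GGGNNTTCC (of the kind bound by NF-kB) and GAAANNGAA or its shorter form GAANNGAA (bound by IRF proteins), searched on both strands.
H2-K1, chr17:34000368-34000497, minus strand: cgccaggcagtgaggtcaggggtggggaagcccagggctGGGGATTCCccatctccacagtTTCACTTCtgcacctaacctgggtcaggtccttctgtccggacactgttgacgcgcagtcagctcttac
H2-D1, chr17:35262884-35263043, plus strand: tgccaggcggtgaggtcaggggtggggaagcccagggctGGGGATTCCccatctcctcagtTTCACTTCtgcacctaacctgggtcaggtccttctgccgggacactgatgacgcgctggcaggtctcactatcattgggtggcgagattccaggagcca
B2m, chr2:122147527-122147656, plus strand: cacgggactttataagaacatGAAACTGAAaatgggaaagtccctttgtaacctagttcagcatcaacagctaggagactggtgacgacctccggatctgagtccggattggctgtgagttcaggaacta
Tap1, chr17:34187310-34187556, plus strand, with the start of Psmb9 on the other strand at its left: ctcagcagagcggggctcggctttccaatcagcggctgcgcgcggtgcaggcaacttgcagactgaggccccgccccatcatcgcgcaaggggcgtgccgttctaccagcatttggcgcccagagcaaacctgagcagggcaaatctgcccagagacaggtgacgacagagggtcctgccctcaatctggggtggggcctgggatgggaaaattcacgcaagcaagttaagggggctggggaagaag

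The windows of H2-K1 and H2-D1 shared a run of 47 identical bases that holds the GGGGATTCC match, followed in both by the shorter IRF match. GAANNGAA was added to the search after the sequences had been seen. The GGGNNTTCC motif was found in 5.82% of the 32851 RefSeq mouse promoter windows of 300 bases, which run from 250 bases before the start to 50 after it. GAAANNGAA was found in 8.56% of these windows and GAANNGAA in 20.1%. Among the 8 genes with a window, GGGNNTTCC was in H2-K1 and H2-D1, GAAANNGAA in B2m, and GAANNGAA in H2-K1, H2-D1 and Psmb10. Only this spelling of an NF-kB site was searched. Sites of another spacing, in B2m or elsewhere, would not be marked or counted. The motif TTCNNNGAA was also searched, and was found in 8.3% of all windows. Among the 8 genes it was in Psmb8 alone, whose stretch is not printed. A CCAAT box lay in 6 of the 8 windows (H2-K1, H2-D1, B2m, Tap1, Tapbp and Psmb9), against 37.4% of all windows. Tap1 and Psmb9 start 226 bases apart on opposite strands, so 275 bases of their windows are the same DNA. Their annotated gene bodies overlap by 212 bases, and the methods do not state whether counting used the strand, so reads in that stretch cannot be assigned to one or the other. H2-K1 and H2-D1 are close paralogs among many class I genes, and Tapbp overlaps Zbtb22 on the same strand by 3422 bases, so their counts are uncertain to the extent that reads were split between such pairs.

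Expression is given as CPM, the count of a gene relative to the library total, scaled over the 27 mice with counts by the trimmed mean of M values. Total counts per mouse ranged from 16485900 to 23570458, and the members' own counts from 144 for Psmb9 in 1 mouse to 43413 for H2-K1 in another. Per kilobase of exon, B2m had the highest level of the 10 with 1662 ± 241 CPM per kb (SD, n = 27), then H2-K1 with 585 ± 96.1, H2-D1 with 275 ± 47.7 and Tapbp with 35.1 ± 5.09. Psmb10 followed with 25.3 ± 4.68, Psmb8 with 11.1 ± 2.84, Tap2 with 9.91 ± 1.84, Tap1 with 5.99 ± 1.72, Psmb9 with 5.03 ± 1.45 and Nlrc5 with 3.11 ± 0.757 CPM per kb. The structural parts of the class I molecule were thus far above the genes of peptide supply, which code for machinery shared by many class I molecules. Each gene lay above the next in this order in all 27 mice for 7 of the 9 neighbouring pairs, and Psmb8 lay above Tap2 in 21 mice and Tap1 above Psmb9 in 24. The order rests on annotated exon lengths, and on FPKM it differed below the heavy chains. In old vehicle females Psmb8 averaged 59.1 FPKM, above Tapbp (55.4) and Psmb10 (45.7), and Psmb9 (15.3) lay above Tap1 (11.5). In young females Psmb8 (35.8 FPKM) lay below Tapbp (44.3) and Psmb10 (43.5).

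**Figure D1:**
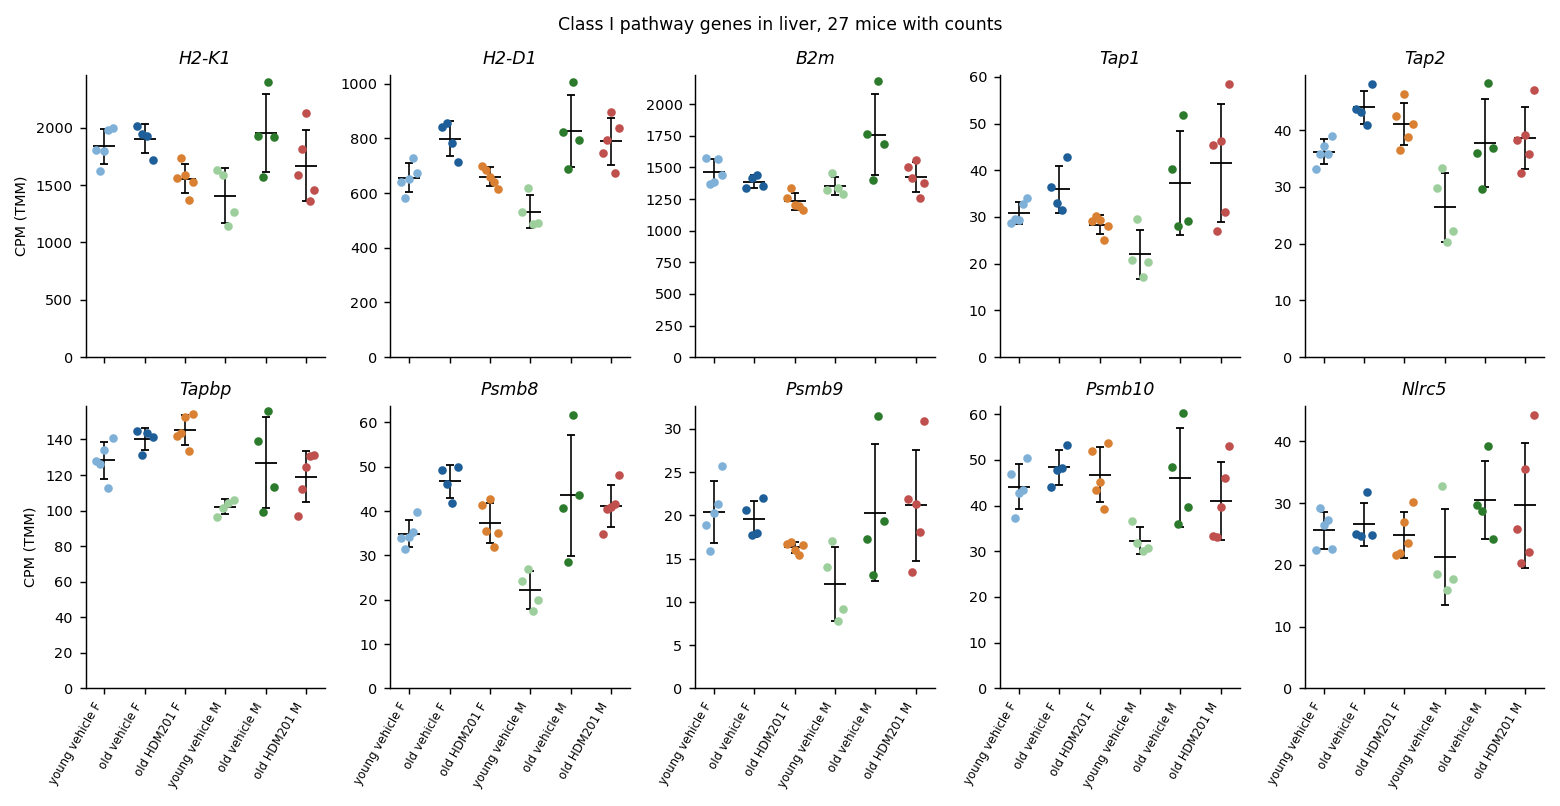
CPM of each gene in each of the 27 mice with counts, by group (F, females; M, males). Points are mice, the horizontal bar is the group mean and the whiskers are 1 SD. Young vehicle males have the lowest group mean for 9 of the 10 genes, and the points of the old males are spread more widely than those of the old females.

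The first question was whether the pathway differs between old and young livers. In females it differed in part: Psmb8, Tap2 and H2-D1 were higher in old mice, while H2-K1, B2m, Psmb9, Psmb10, Tapbp, Tap1 and Nlrc5 did not pass the test. Of the 10 genes, 3 were called higher and none lower at a false discovery rate (FDR) under 0.05 in edgeR's quasi-likelihood test, beside 16.8% of all genes called higher in this comparison. With 10 members, 3 calls are not set apart from that background. The median log2 fold change of the 10 was 0.15, against 0.01 for all 14233 genes tested.

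Psmb8, the immunoproteasome subunit with chymotrypsin-like activity, gave the largest of these changes. Its CPM was 31.4, 34.0, 34.2, 35.3 and 39.7 in the young females and 41.8, 46.0, 49.3 and 49.9 in the old vehicle females. Every old vehicle female lay above every young female. The log2 fold change was 0.44 ± 0.084 (SE; FDR 0.00203), and it passed the test in each of the 9 fits that left out 1 mouse. Tap2, which codes for a chain of the TAP heterodimer, had CPM of 33.2, 35.8, 35.9, 37.1 and 39.0 in young females and 41.0, 43.2, 43.7 and 48.0 in old vehicle females. Here too the groups did not overlap, and the log2 fold change was 0.30 ± 0.074 (FDR 0.00839), with FDR 0.102 when all 6 groups shared 1 fit. Groups that do not overlap, with the old mice higher, were seen for these 2 members and for 12.5% of all genes tested. H2-D1, a classical heavy chain, had CPM of 583, 642, 651, 673 and 729 in young females and 715, 782, 842 and 856 in old vehicle females. A young female lay above the lowest old one, and the log2 fold change was 0.30 ± 0.089 (FDR 0.0203). Its call was lost without old vehicle female 1 (FDR 0.0652) or old vehicle female 2 (FDR 0.0701).

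The partners of these genes gave other values in the same mice. Tap1, the other chain of the transporter, had a log2 fold change of 0.24 ± 0.098 (FDR 0.0814) and H2-K1, the other classical heavy chain, one of 0.07 ± 0.090 (FDR 0.589). B2m, the light chain that every class I heavy chain needs, stood at -0.06 ± 0.080 (FDR 0.607). Psmb9, the subunit that replaces Psmb6, stood at -0.04 ± 0.127 (FDR 0.835), and its young females spanned 15.9 to 25.7 CPM around the old vehicle females at 17.8 to 22. Tapbp, which codes for tapasin and bridges TAP and the heavy chain, was at 0.15 (FDR 0.165), Psmb10 at 0.15 (FDR 0.235) and Nlrc5 at 0.07 (FDR 0.633). The 95% intervals of H2-K1 (-0.125 to 0.264) and B2m (-0.23 to 0.11) do not include the change seen for Psmb8. The interval of Psmb8 itself (0.260 to 0.622) overlaps that of H2-K1 slightly, and differences between the genes were not tested.

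In males all 10 genes had a positive fold change from young to old, each with an unadjusted edgeR p under 0.05. Such a p was found for 21.9% of all genes. Only H2-D1 and Psmb8 passed the FDR. That is 2 of 10, beside 2.76% of all 13755 genes called higher. The log2 fold changes of the members ran from 0.32 for Tapbp to 0.98 for Psmb8, with a median of 0.53 against -0.01 for all genes, and their SE from 0.138 to 0.299. Psmb8 CPM was 17.4, 20.0, 24.3 and 26.9 in young males and 28.4, 40.6, 43.6 and 61.6 in old vehicle males, without overlap (log2 fold change 0.98 ± 0.220, FDR 0.0404). H2-D1 CPM was 489, 489, 531 and 619 in young males and 689, 794, 823 and 1007 in old vehicle males, also without overlap (0.65 ± 0.140, FDR 0.0357). These were the 2 members whose old males all lay above the young ones, beside 7.33% of all genes. Old vehicle male 4 was the highest of the 4 for each of the 10 genes, and without it no member was called. The call of H2-D1 was lost on leaving out 5 of the 8 males in turn (highest FDR 0.101) and that of Psmb8 on leaving out 7 of them (highest FDR 0.107).

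The remaining members rested on a wide spread in males. Tap1 was 17.2, 20.3, 20.9 and 29.5 CPM in young males and 28.0, 29.1, 40.2 and 51.8 in old vehicle males (0.77 ± 0.220, FDR 0.0778). Psmb9 was 7.82, 9.17, 14.1 and 17 CPM in young males and 13.2, 17.3, 19.3 and 31.5 in old vehicle males (0.77 ± 0.299, FDR 0.167). For Tap1, 1 young male lay above 2 old ones, and for Psmb9, 2 young males lay above the lowest old one. B2m, the member with the highest level per kilobase, gave 1294, 1319, 1334 and 1457 CPM in young males and 1404, 1684, 1766 and 2183 in old vehicle males (0.39 ± 0.145, FDR 0.151). Nlrc5, the factor that switches on class I promoters, was 15.9, 17.7, 18.5 and 32.8 CPM in young and 24.2, 28.7, 29.7 and 39.3 in old vehicle males (0.54 ± 0.230, FDR 0.208).

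The second question was whether HDM201 alters the pathway in old mice. In females 9 of the 10 genes had a negative fold change under HDM201. Of these, 6 had an unadjusted edgeR p under 0.05, beside 22.5% of all genes, and 1, H2-D1, passed the FDR. Beside this 1 of 10, 2.90% of all 14445 genes were called lower. The members' median log2 fold change was -0.23, against 0.00 for all genes, and the largest change, that of Tap1, was -21.6%. DESeq2 called 5 of the 10 (H2-K1, H2-D1, B2m, Tap1 and Psmb8) and the other alternatives between 0 and 3. Without old vehicle female 3, the called genes were Tap1, Psmb8 and Psmb9, so both the number and the names past the threshold depended on the test and on single mice.

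H2-D1 CPM was 715, 782, 842 and 856 in old vehicle females and 615, 639, 659, 685 and 699.7 in old HDM201 females. The groups did not overlap, and the log2 fold change was -0.28 ± 0.075 (FDR 0.0489). The FDR lay just under the threshold and passed it in 1 of the 9 fits without 1 mouse, that without HDM201 female 1 (FDR 0.0437). In the other 8 fits it ranged up to 0.148, so leaving out any other mouse ended the call. Tap1 was 31.5, 33.0, 36.4 and 42.9 CPM in old vehicle females and 25.0, 28.1, 29.1, 29.3 and 30.2 in HDM201 females (-0.35 ± 0.094, FDR 0.0529). Psmb9 was 17.8, 18.0, 20.6 and 22 CPM against 15.4, 16.0, 16.5, 16.6 and 17 under HDM201 (-0.27 ± 0.078, FDR 0.0657). B2m was 1339, 1351, 1417 and 1442 CPM against 1162, 1198, 1204, 1258 and 1336 (-0.18 ± 0.068, FDR 0.139). In these 4 genes every HDM201 female lay below every old vehicle female, as in 4.63% of all genes tested. H2-K1 (-0.30 ± 0.082, FDR 0.0574) and Psmb8 (-0.34 ± 0.095, FDR 0.0636) had changes of like size with overlapping groups. Tap2 (-0.11, FDR 0.463), Nlrc5 (-0.10, FDR 0.648), Psmb10 (-0.06, FDR 0.764) and Tapbp (0.04, FDR 0.760) had smaller ones.

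Set against young vehicle females, old HDM201 females were lower in B2m (-0.25 ± 0.080, FDR 0.0368) and Psmb9 (-0.32 ± 0.109, FDR 0.0436), which is 2 of 10 beside 12.6% of all genes called lower. The call of B2m held in 4 of 10 fits without 1 mouse (highest FDR 0.0876) and that of Psmb9 in 2 of 10 (highest FDR 0.109). The members split evenly, 5 above and 5 below 0. H2-D1 and Psmb8, both higher in old vehicle than in young females, stood at 0.01 (95% interval -0.16 to 0.19) and 0.10 (-0.10 to 0.30) in this comparison. The female comparisons share samples, so these values stand side by side and are not independent. On log2(FPKM + 1), limma called neither B2m (FDR 0.426) nor Psmb9 (FDR 0.111), and called Tapbp and Psmb8 instead, both higher.

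In males HDM201 gave no called member in edgeR or in DESeq2, and 1 of the 10 had an unadjusted p under 0.05 in each (in edgeR B2m, unadjusted p = 0.0471). Such a p was found for 12.1% of all genes in edgeR. Of all 14109 genes tested, 1 (0.00709%) was called in this comparison. The members' log2 fold changes ran from -0.30 for B2m to 0.17 for Tap1, and their median was -0.07, against 0.01 for all genes. The 95% intervals were wide, at -0.35 to 0.22 for H2-D1 and -0.48 to 0.33 for Psmb8, and included the values seen in females. The interaction of sex and treatment called no member in edgeR or DESeq2, none had an unadjusted p under 0.05 in either, and 0.107% of all genes were called. Of all genes, 18.5% had an unadjusted p under 0.05 in edgeR. A difference between the sexes in the response of these genes was therefore not detectable with these mice. Old HDM201 males compared with young males had positive fold changes in all 10 members, and 4 were called higher beside 11.6% of all genes: Psmb8 (0.90 ± 0.135, FDR 0.00248), H2-D1 (0.58 ± 0.120, FDR 0.00838), Tap1 (0.93 ± 0.228, FDR 0.0172) and Tap2 (0.56 ± 0.157, FDR 0.0304). The call of Tap2 held in 4 of 9 fits without 1 mouse and in 4 of 8 other alternatives, and that of Tap1 in 8 of 9 and 4 of 8.

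**Figure D2:**
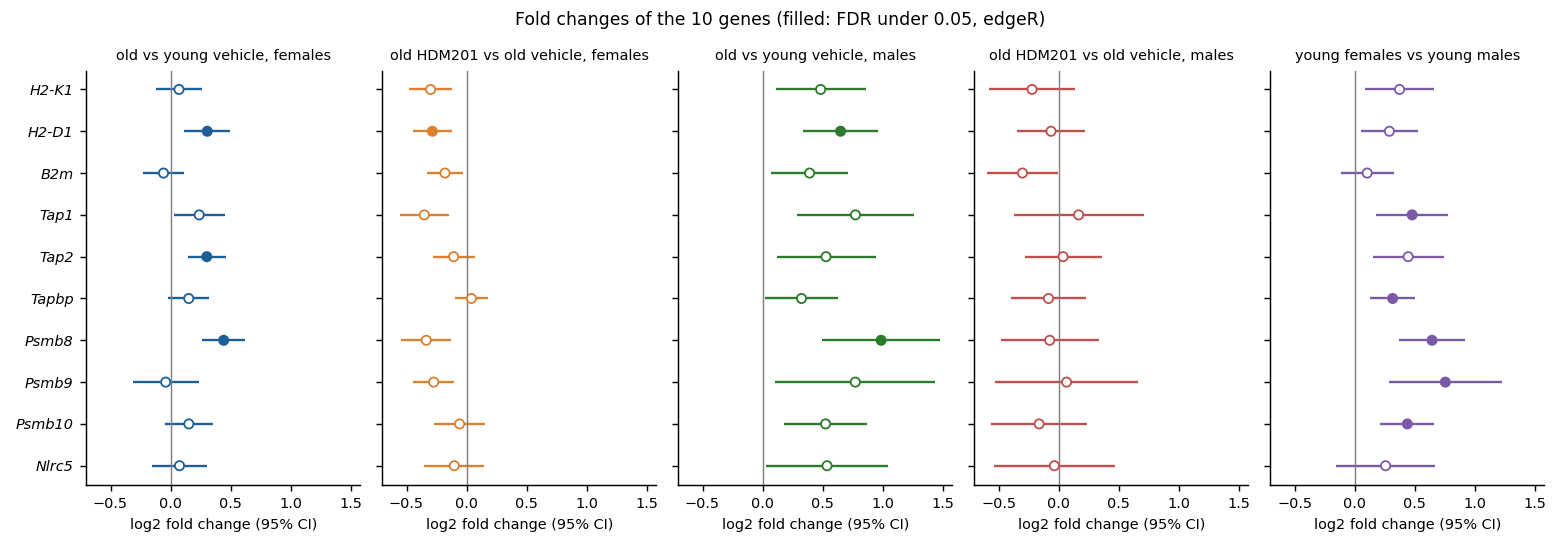
Log2 fold changes of the 10 genes in 5 comparisons, with 95% confidence intervals from edgeR's quasi-likelihood fit. Filled circles have an FDR under 0.05. Psmb8 is filled in both comparisons of old with young and in young females against young males, and for each gene the interval is wider in males than in females, both with age and under HDM201.

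The pathway also differed in part between the sexes in young mice. All 10 fold changes of young females against young males were positive, and 5 passed the test beside 5.63% of all genes called higher. They were the 3 immunoproteasome genes Psmb8 (0.64 ± 0.126, FDR 0.00833), Psmb9 (0.75 ± 0.215, FDR 0.0439) and Psmb10 (0.44 ± 0.103, FDR 0.0202), with Tap1 (0.48 ± 0.139, FDR 0.0468) and Tapbp (0.32 ± 0.086, FDR 0.0377). Tap2 just missed the threshold (0.44 ± 0.136, FDR 0.0557), and B2m had the smallest difference (0.10 ± 0.102, FDR 0.543). The groups did not overlap for Psmb8, Psmb10 and Tapbp, which is 3 of 10 beside 7.0% of all genes. Psmb10, the subunit that replaces Psmb7, was 37.3, 42.6, 43.4, 47.0 and 50.5 CPM in young females and 30.1, 30.8, 31.7 and 36.6 in young males. Tapbp was 113, 126, 128, 134 and 141 CPM in young females against 96.2, 102, 104 and 106 in young males. The calls of Tap1 and Tapbp held in 1 of 9 fits without 1 mouse each, that of Psmb9 in 3, that of Psmb10 in 7 and that of Psmb8 in all 9. Young vehicle male 2 had more Nlrc5 (32.8 CPM) than the other young males (15.9 to 18.5 CPM) and was also the highest young male for Tap1, Tap2, Psmb8, Psmb9, H2-D1 and B2m.

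The fold change from young to old was smaller in females for all 10 genes. Averaged over the members, young females lay above young males and the old vehicle groups were at similar levels. B2m departed from this average. Its mean was 1387 CPM in old vehicle females and 1759 in old vehicle males, against 1466 and 1351 in young females and males. Old females were not tested against old males. Old females were 20 months and old males 24 months, so sex and this gap in age cannot be told apart here. The mean over the members of log2(CPM + 1) was 6.77 ± 0.0805 in young females and 6.35 ± 0.223 in young males, and 6.91 in both old vehicle groups, with an SD of 0.0317 in females and 0.311 in males. In edgeR the interaction of sex and age had an unadjusted p under 0.05 for 4 members (H2-K1, B2m, Psmb8 and Psmb9). Such a p was found for 21.5% of all genes. EdgeR called none of the members, beside 3.92% of all genes called. DESeq2 had 6 members at an unadjusted p under 0.05 and called B2m alone. The largest difference was that of Psmb9, at -0.80 ± 0.337 (FDR 0.176), females minus males.

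In the immunoproteasome the catalytic subunits Psmb8, Psmb9 and Psmb10 take the places of Psmb5, Psmb6 and Psmb7, so the ratio of each pair within a mouse does not depend on library scaling. The ratio of Psmb8 to Psmb5, in CPM per kb, was 0.106 to 0.131 in young females, 0.144 to 0.183 in old vehicle females and 0.116 to 0.151 in old HDM201 females. For Psmb9 to Psmb6 it was 0.0966 to 0.139, 0.101 to 0.127 and 0.0753 to 0.0905 in the same groups, and for Psmb10 to Psmb7 it was 0.768 to 1.09, 1.12 to 1.41 and 0.900 to 1.27. With these exon lengths Psmb10 was thus the immunoproteasome gene closest to its counterpart in level. The level of a ratio depends on the lengths used, while its difference between groups in log2 units does not. The HDM201 females lay wholly below the old vehicle females for Psmb9 to Psmb6. In log2 units the ratios of Psmb8 and of Psmb10 were higher in old vehicle than in young females by 0.51 and 0.47 (exact permutation p = 0.0159 for each, two-sided, adjusted p = 0.0635 over 12 tests), with 0.09 for Psmb9 (exact permutation p = 0.571). Under HDM201 the 3 ratios changed by -0.32, -0.40 and -0.29 in females (adjusted exact permutation p = 0.0635, 0.0635 and 0.0816). The log2 fold changes of Psmb8, Psmb9 and Psmb10 alone were -0.34, -0.27 and -0.06 there. The ratios of Psmb9 and above all of Psmb10 thus changed by more than the genes themselves did. None of the 12 tests passed an adjusted p of 0.05. The smallest exact permutation p is 0.0159 for 4 against 5 mice and 0.0286 for 4 against 4, as in males with age. With such floors 1 test alone could not pass over 12 tests, so missing the threshold does not show equal ratios. In males the differences from young to old were 0.96, 0.79 and 0.74 (adjusted exact permutation p = 0.0635, 0.129 and 0.0635), and those under HDM201 were -0.01, 0.00 and -0.15 (lowest adjusted exact permutation p = 0.686).

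**Figure D3:**
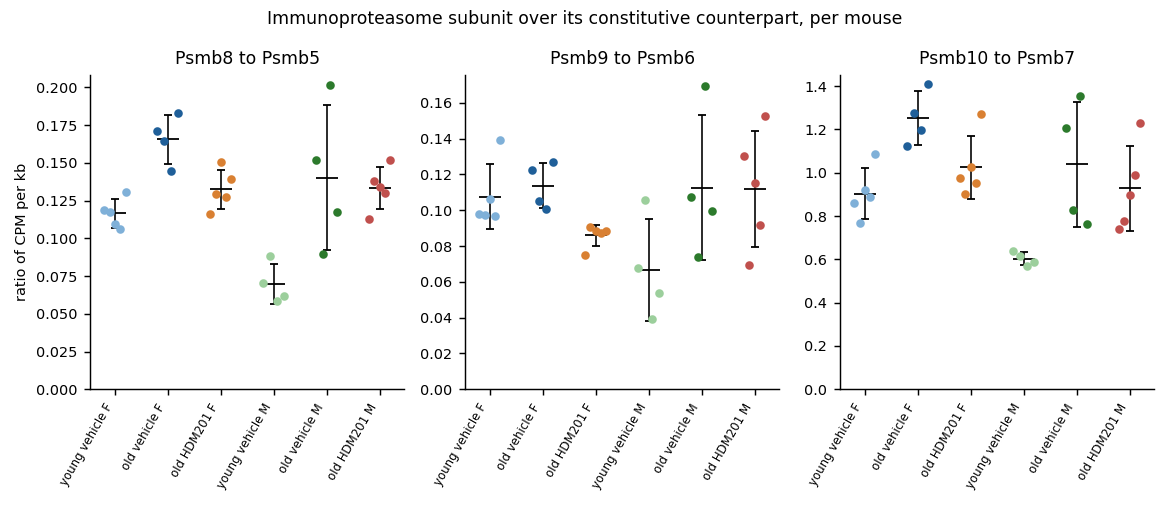
Ratio of each immunoproteasome subunit gene to the constitutive gene whose place it takes, in CPM per kb, in each of the 27 mice with counts. Points are mice, bars are means and whiskers are 1 SD. The ratio of Psmb10 to Psmb7 lies between 0.571 and 1.41, and those of Psmb8 to Psmb5 and Psmb9 to Psmb6 at or below 0.201.

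The denominators shaped these ratios unequally. From young to old females Psmb7 fell (-0.32 ± 0.073, FDR 0.00556), while Psmb5 (-0.07, FDR 0.543) and Psmb6 (-0.13, FDR 0.286) did not pass the test. The 14 constitutive genes of the proteasome core all had negative fold changes in old females, and 8 were called lower and none higher (median -0.25), beside 15% of all genes called lower and 16.8% called higher in this comparison. The 4 of these with the largest changes were the alpha ring genes Psma1 (-0.35 ± 0.065, FDR 0.0018), Psma2 (-0.37 ± 0.073, FDR 0.00258), Psma5 (-0.40 ± 0.081, FDR 0.00309) and Psma6 (-0.52 ± 0.076, FDR 0.000445). Under HDM201 in females 13 of the 14 were positive and 2 were called higher (median 0.17), beside 2.35% of all genes called higher, among them Psma1 (0.32 ± 0.067, FDR 0.0213). In males none of the 14 was called with age (median -0.19, all negative) or under HDM201 (median 0.03). Of 9 activator and assembly genes, Psme3 rose (0.25 ± 0.075, FDR 0.0237) and 3 fell in old females, Pomp, Psmg1 and Psmg2, all of which help to build the core particle. None of these 9 was called under HDM201 in either sex.

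Other parts of the pathway were described from lists of genes. Of 18 other class I heavy chain genes tested in females, 2 were called higher and 1 lower in old mice: H2-Q4 (0.28 ± 0.098, FDR 0.0424) and Hfe (0.44 ± 0.077, FDR 0.00129) rose, and H2-Bl fell from a low level (-1.59 ± 0.508, FDR 0.0304). Hfe is a class I like protein of iron sensing that presents no peptide. In males 5 of 18 were called higher with age and none lower (median 0.67), and in young females 7 of 18 exceeded young males. The shares of all genes called higher in these 2 comparisons were 2.76% and 5.63%. Under HDM201, 3 of 19 were called lower in females, H2-Q6, H2-Q7 and H2-T24, named after their values were seen, and none of 18 in males. Of all genes, 2.90% were called lower under HDM201 in females. Among 15 genes of peptide loading and trimming, 1 was called higher and 3 lower in old females: the glucosyltransferase gene Uggt1, which re-tags misloaded class I, rose (0.34 ± 0.070, FDR 0.00305), and the peptidase genes Blmh, Lap3 and Lnpep fell (from -0.38 to -0.24). Under HDM201 in females 1 of the 15 was called higher, beside 2.35% of all genes. In old males 1 was called lower with age, beside 0.931% of all genes.

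Of 23 genes that regulate class I, 8 were called higher and 1 lower in old females (median 0.15), and none in old males, beside 16.8% of all genes called higher in the females. Irf8, a factor of myeloid and B cells, rose (1.03 ± 0.124, FDR 0.000139), as did Stat2 (0.45 ± 0.107, FDR 0.00693) and Rfx5 (0.45 ± 0.104, FDR 0.00602), part of the complex that binds class I and class II promoters. Irf2, which can hold back interferon responses, fell (-0.52 ± 0.131, FDR 0.00955). Under HDM201 in females 2 of the 23 were called lower and none higher, Irf8 (-0.64 ± 0.128, FDR 0.0193) and Stat2 (-0.37 ± 0.065, FDR 0.011). Of 29 interferon-induced genes, 14 were called higher and 1 lower in old females (median 0.33), 5 were called lower under HDM201 in females (median -0.29) and 4 higher in old males (median 1.25), beside 16.8%, 2.90% and 2.76% of all genes called in those directions. Zbp1, a sensor of nucleic acids, gave 1.12 ± 0.188 (FDR 0.00104) in old females, and Usp18, a brake on interferon signalling, was the one that fell (-0.84 ± 0.139, FDR 0.000916). In males under HDM201 no regulator or interferon-induced gene was called.

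The class II genes had larger median fold changes than the 10 genes. In old females 9 of 9 tested were called higher (median 1.34), led by Ciita, the class II transactivator (2.02 ± 0.226, FDR 8.72e-05). Under HDM201 in females 6 of 10 were called lower (median -0.91), and in old males 6 of 10 were called higher (median 1.52). Beside these counts and those of the marker lists, 16.8%, 2.90% and 2.76% of all genes were called in those directions. Class II is made by antigen-presenting cells, and the markers of these cells moved in the same way only in part. Pan-leukocyte and macrophage markers did so, while under HDM201 in females no dendritic or monocyte marker was called lower. Pan-leukocyte markers were called higher in old females in 5 of 5 cases (median 1.5) and lower under HDM201 in 5 of 5 (median -1.08). Their summed level was 31.2 to 40.7 CPM in young females, 70.0 to 113 in old vehicle females and 44.7 to 55.6 in old HDM201 females. Macrophage and Kupffer cell markers were called higher in 9 of 10 cases in old females (median 1.13) and lower in 9 of 10 under HDM201 (median -1.08), with sums of 269 to 388, 418 to 824 and 246 to 407 CPM. B and plasma cell markers were higher in 6 of 7 cases in old females, and 1 was lower under HDM201. None of the macrophage, B cell or pan-leukocyte markers was at 0 in any group. Hepatocyte markers had 2 of 6 called lower in old females and none under HDM201, with sums from 96189 to 135101 CPM in females. In RNA of whole liver, fewer cells of a type and less RNA per cell cannot be told apart, and the part of leukocyte RNA in the values of the class I genes was not tested. The paper measured cell frequencies by flow cytometry. It reports that HDM201 reversed the rise with age of both dendritic cells and macrophages in the liver.

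In males these lists and the members both had positive medians with age, but under HDM201 the members' median was -0.07, while that of pan-leukocyte markers was 0.34, of macrophage and Kupffer markers 0.30 and of class II genes 0.45. Pan-leukocyte sums were 17.6 to 28.5 CPM in young, 31.0 to 81.7 in old vehicle and 49.3 to 109 in old HDM201 males, with 2 of 5 markers called higher with age and none under HDM201. Macrophage and Kupffer sums were 116 to 254, 176 to 536 and 251 to 653 CPM, with 2 of 10 called higher with age. Young females exceeded young males in 7 of 10 macrophage and Kupffer markers (median 0.90) and in 2 of 5 pan-leukocyte markers (median 0.67), beside 5.63% of all genes. Of the remaining marker lists in old against young females, monocyte markers were higher in 4 of 4 cases, dendritic in 2 of 5, T and NK cell in 3 of 8, neutrophil in 2 of 2, stellate and cholangiocyte in 2 of 5 each and erythroid in 1 of 5, endothelial markers split into 1 higher and 1 lower of 6, and of the pancreas and fat markers the 1 tested was lower. Under HDM201 in females 2 cholangiocyte markers were higher and 1 endothelial marker lower, and in males no marker of any list was called. In those females 2.35% of all genes were called higher and 2.90% lower. Ly6g was at 0 in both young groups, and the pancreas genes Pnlip and Cpa1 were at 0 in all groups. Erythroid sums ranged from 164 to 252 CPM in old vehicle females and from 17.5 to 164 in old HDM201 females, and from 286 to 1139 CPM in old vehicle males and 101 to 205 in old HDM201 males, and none of the 5 markers was called under HDM201 in either sex. Mdm2, itself a p53 target, was 25.5 to 27.8 CPM in old vehicle females and 29.3 to 38.0 in old HDM201 females, without overlap, and 29.6 to 35.8 against 31.9 to 35.4 in males. Nnt, a gene whose structure differs between the substrains, was 2.24 to 4.42 CPM in young and 2.19 to 2.92 in old vehicle females, so its level did not separate them. In males it was 2.3867 to 3.671 CPM in young and 1.607 to 2.3862 in old vehicle mice, barely without overlap.

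**Figure D4:**
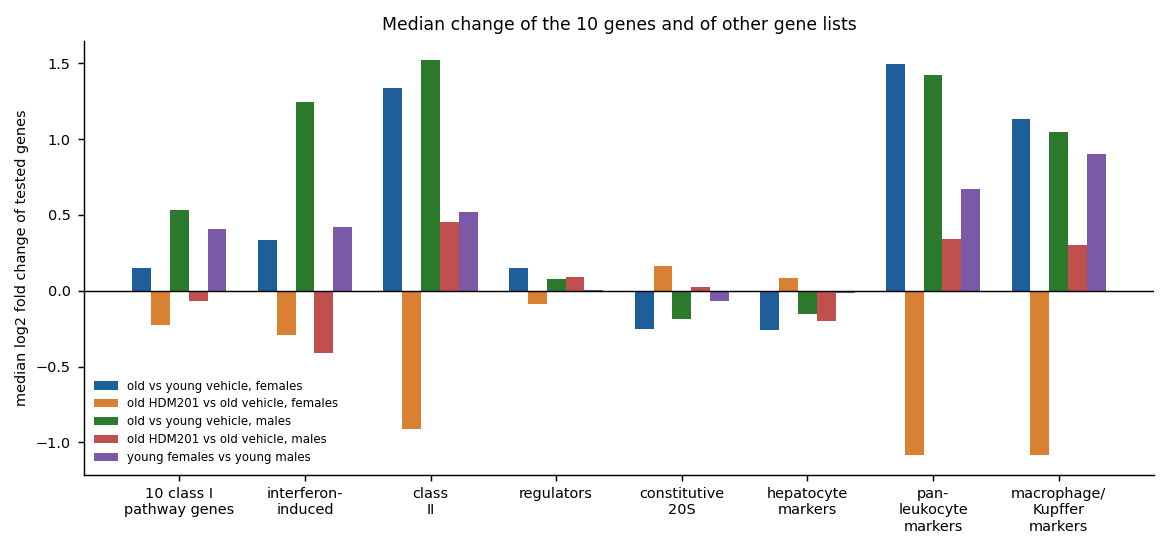
Median log2 fold change of the 10 genes and of 7 other gene lists, over the genes tested, in 5 comparisons (bars). The medians of the 10 genes lie between -0.23 and 0.53, and those of class II and leukocyte markers reach from -1.08 to 1.52. Those of the constitutive 20S proteasome have the opposite sign to the 10 genes with age and under HDM201 in both sexes, though near 0 under HDM201 in males.

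The genes also varied together among mice of the same group. Each mouse's log2(CPM + 1) was taken as a deviation from its group mean and scaled by the gene's SD, and each member was set against the mean of the other 9 over the 27 mice. Pearson's r was 0.867 for Psmb9, 0.85 for Psmb8, 0.84 for Tap2, 0.81 for Tap1, 0.775 for H2-D1, 0.648 for Psmb10, 0.641 for B2m, 0.601 for H2-K1, 0.588 for Nlrc5 and 0.532 for Tapbp. These are descriptions across mice that share library and scaling, and they rest more on males than on females. Among the 13 males they ran from 0.583 to 0.906, and among the 14 females from -0.375 for Nlrc5 and 0.0349 for B2m to 0.758 for Psmb8. The closest pair was Tap2 with Psmb9 (r = 0.907), ahead of Tap1 with Psmb9 (0.86), which share the start region printed above, Tap2 with Psmb8 (0.852) and H2-K1 with H2-D1 (0.812).

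Outside the 10, the genes most like the members' mean in this measure were Rtp4 (r = 0.875), Ly6a (0.838), Shisa5 (0.834), Lgals3bp (0.797), Xaf1 (0.782), Irf7 (0.777), Nmi (0.768), Unc93b1 (0.761), H2-Q4 (0.758) and Cd5l (0.757), of 15283 genes compared over 27 mice. Rtp4, Xaf1, Irf7 and Nmi are known as interferon-induced genes, and Cd5l is made by macrophages. The median correlation over the compared genes was -0.00907, and 359 of them (2.35%) were above 0.5. Of the other genes tested between H2-K1 and H2-D1 (chr17:33996017-35262730), 15 of 57 were called higher and 2 lower in old females (median 0.11), none higher and 4 of 55 lower under HDM201 in females, and 2 of 52 higher in old males. These shares of 26.3%, 7.27% and 3.85% stand beside 16.8%, 2.90% and 2.76% of all genes.

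FPKM values showed 1 more old vehicle male, mouse 1, with the highest level of the old vehicle males for all 10 genes. Psmb9 was 92.0 FPKM in this mouse and 8.79 to 24.5 in the other 4, Psmb8 191 against 30.1 to 60.9, and Tap1 62.7 against 8.13 to 15.1. H2-D1 was 959 against 327 to 486 and Nlrc5 23.9 against 6.48 to 9.97, while B2m was 3581 against 1977 to 2939 and H2-K1 2252 against 1194 to 1714. The genes of peptide supply thus stood 1.76 to 4.16 times above the next old vehicle male, and the heavy chains and B2m 1.22 to 1.97 times. FPKM summed over all genes was 741496 in this mouse and between 703630 and 843180 in the old vehicle males, but reached 6010507 over all mice, so FPKM is not on 1 scale in every mouse. In the same mouse the class II gene Cd74 was at 1601 FPKM and the pan-leukocyte sum at 415, against 19.1 to 54.4 in the others. Young vehicle male 5, also without counts, had 36.7 FPKM of Psmb8 (16.7 to 27.9 in the other 4) and 45.3 of Tapbp (34.0 to 36.8), but less H2-K1 (880 against 914 to 1228) and B2m (1587 against 1740 to 2002). Its acute phase gene Saa1 was at 26524 FPKM and its neutrophil marker sum at 503 FPKM. The study's methods say that a young male with a wound and a possible infection was left out in 1 of its animal cohorts, without naming the mouse. With both mice in a limma fit on log2(FPKM + 1), no member passed the test between old and young vehicle males or between young females and young males. Without them, that fit called none and 1 (Psmb8), respectively.

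**Figure D5:**
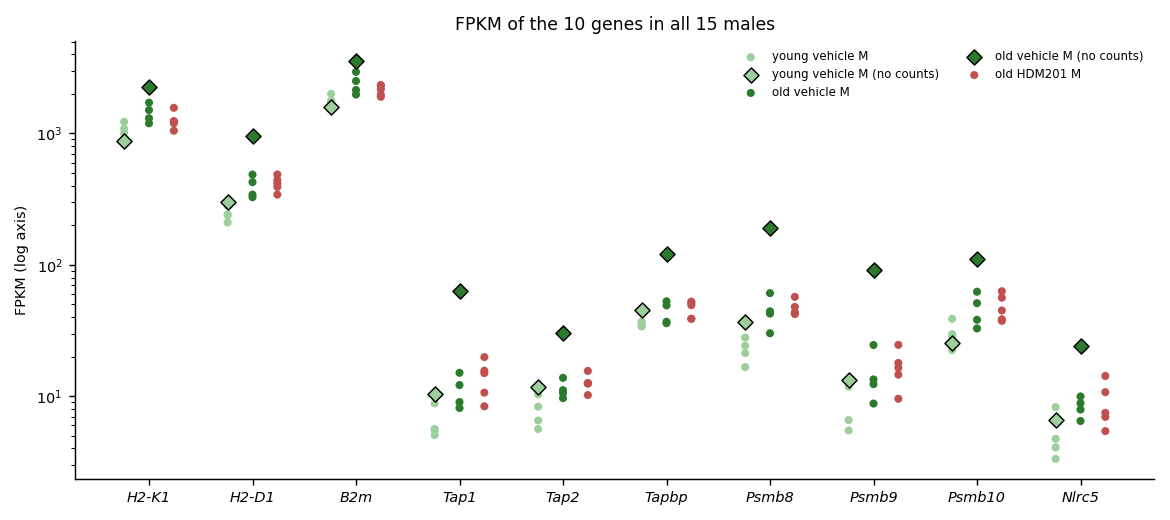
FPKM of the 10 genes in all 15 males on a log axis. Diamonds are the 2 males with FPKM values only, and circles are the 13 males with counts. The old vehicle male shown as a diamond is the highest old vehicle male for each gene, with Tap1 at 62.7 FPKM against 8.13 to 15.1 in the others.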

How the data were processed

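RNA-seq libraries of polyA RNA from whole liver were analysed as the authors deposited them: HTSeq counts per gene for 27 mice and Cufflinks FPKM for 29, both after STAR alignment to mm10. Versions, strand setting and treatment of multi-mapping reads are not given in the sources used here. Counts were tested with edgeR 4.0.16 (R 4.3.3): low counts removed by filterByExpr (count minimum 10, total minimum 15), scaling by TMM, a quasi-likelihood fit on the groups compared, and Benjamini-Hochberg FDR under 0.05 over all genes. The SE is the fold change over the root of F. FPKM was tested with limma 3.58.1 on log2(FPKM + 1), with a minimum mean FPKM of 0.1 and empty cells read as 0. Fits were tested on simulated data. Alternatives were DESeq2 1.42.0, RLE factors, no filter, FDR under 0.01, 1 fit of all 6 groups, a replicate block, leaving out each mouse, and a pseudocount of 0.1. FPKM fits over the mice with counts were added after seeing the data. Ratios were compared with exact permutation tests (scipy 1.17.1), adjusted over 12 tests.

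The members and lists were chosen with earlier results of these data known. The text names all 10 members, from each list up to 4 genes with the largest change among those called between old and young females, and the 10 genes most like the members. Gene positions and exon lengths are from GENCODE M21 (GRCm38), promoters from RefSeq (GRCm38.p6), where 8 of the 10 members matched; Tap2 and Nlrc5 did not. Total counts ranged from 16485900 to 23570458 per mouse. No label names a batch. The study treated each mouse as a biological replicate, so p-values measure the spread between mice.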

Additional observations from a re-analysis of the deposited data

Results flagged for a closer look

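In 10 groups of 4 or 5 mice, 1 mouse lay further from the rest than Dixon's 95% limit allows, 2 of 60 groups tested on CPM and 8 of 20 on FPKM. Chance gives about 1 in 20 for independent tests. On FPKM only old and young vehicle males were tested, the groups that hold the mice without counts. The 8 of 20 is therefore a count over chosen groups and cannot be set against chance. On CPM the 2 outliers were both for Nlrc5: old vehicle female 3 had 31.8 CPM, against 24.6 to 25.0 in the other 3, and young vehicle male 2 had 32.8 CPM, against 15.9 to 18.5. On FPKM, old vehicle male 1 stood above its group in H2-D1 (959 FPKM), Tap1 (62.7), Tap2 (30.1), Tapbp (120.3), Psmb8 (191), Psmb9 (92.0) and Nlrc5 (23.9). Its B2m, H2-K1 and Psmb10 were also the highest of the group, within the limit. Young vehicle male 5 stood above its group in Tapbp, with 45.3 FPKM against 34.0 to 36.8. The 7 values of old vehicle male 1 come from 1 mouse and are not independent of each other.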

How the results depend on the processing

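The number of members called depended on the processing in most comparisons, and the cause was not tested. Of 87 counts under an alternative other than leaving out a mouse, 51 stayed within 1.5 times the reported count. In old against young females (3 called) limma on FPKM called 5 with either pseudocount, and leaving out 1 mouse gave 2 to 4. Under HDM201 in females (1 called), FDR under 0.01, RLE factors, 1 fit of all groups and the 3 FPKM fits gave 0, DESeq2 5 and no filter 3, and leaving out 1 mouse gave 0 to 3. In old HDM201 against young females (2 called), FDR under 0.01 gave 0, no filter and 1 fit of all groups 1 each, and leaving out 1 mouse 0 to 3. In old against young males (2 called), FDR under 0.01 and the 4 FPKM fits gave 0, DESeq2 4 and 1 fit of all groups 8, and leaving out 1 mouse 0 to 2. Leaving out old vehicle male 2 or 4, or young vehicle male 1, 3 or 4, gave 0 there. In old HDM201 against young males (4 called), FDR under 0.01 and limma on FPKM gave 2, limma without a filter 1, and leaving out 1 mouse 2 to 5. In young females against young males (5 called), FDR under 0.01 gave 1, DESeq2 8, the 3 FPKM fits 0 and that over the mice with counts 1, and leaving out 1 mouse 1 to 6, with 1 without young vehicle male 3 or 4. For the interaction of sex and age (0 called), DESeq2 and 1 fit of all groups gave 1, and leaving out 1 mouse 0 to 1. HDM201 in males and the interaction of sex and treatment had 0 under every alternative.

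With the replicate number as a block, the count was 2 in old against young females, 0 under HDM201 in females, 0 for old HDM201 against young females, 0 in old against young males, 1 in old HDM201 against young males and 1 between the sexes. The deviations of same-numbered mice correlated between -0.295 and 0.222 over 15293 genes, and in no comparison did every pair exceed 0.1. With so few pairs this check cannot exclude pairing, and whether same-numbered mice are paired is not known. At most 2 pairs of a comparison correlated best with their own number.

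Of 720 fold changes of single members, 585 kept their direction and their side of the threshold and 36 reversed. None of the reversed fold changes was called in the reported fit. The largest reported value among them was that of Psmb9 in the interaction of sex and treatment, at -0.33. In old against young females, Psmb9 was 0.0601 with the block, 0.053 or 0.0567 on FPKM and -0.12 to 0.0583 without 1 mouse, B2m 0.10 on FPKM, and Nlrc5 -0.0235 to 0.13 without 1 mouse. In old HDM201 against young females, FPKM gave 0.00981 or 0.0110 for Tap1, 0.00766 or 0.00943 for Nlrc5 and -0.0551 or -0.0562 for Psmb10, and leaving out 1 mouse gave -0.11 to 0.0154 for Nlrc5 and -0.0271 to 0.0536 for H2-D1. Under HDM201 in males, FPKM gave -0.21 for Tap1, -0.12 for Tap2 and -0.34 for Psmb9, the block 0.0273 for Psmb8, and leaving out 1 mouse -0.0678 to 0.18 for Tap2, -0.12 to 0.35 for Psmb9, -0.24 to 0.14 for Psmb8, -0.15 to 0.0403 for H2-D1, -0.19 to 0.0267 for Tapbp and -0.23 to 0.11 for Nlrc5. For the interaction of sex and treatment, FPKM gave 0.0186 for H2-K1, 0.0439 or 0.0278 for Psmb9 and 0.11 for Nlrc5, the block -0.0188 for Psmb10, and leaving out 1 mouse -0.18 to 0.0289 for H2-K1, -0.0400 to 0.22 for Psmb10 and -0.20 to 0.13 for Nlrc5. Of the ratios, those under HDM201 in males turned: Psmb8 to Psmb5 was 0.0442 with the block and -0.21 to 0.18 without 1 mouse, and Psmb9 to Psmb6 -0.51 on FPKM, -0.0643 with the block and -0.18 to 0.22 without 1 mouse. Psmb9 has the lowest count of the members, 144 in 1 library.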
